A study of Rattus norvegicus with 6 samples.

Results

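The genes described here encode the subunits of the voltage-gated sodium channels (symbols Scn with a number), the voltage-gated calcium channels (Cacna, Cacnb and Cacng) and the pacemaker channels (Hcn with a number). Genes were taken by their symbol, whatever their signal. Of 15037 genes with a named row on the array, 38 matched, each with 1 row. The RefSeq rat gene table holds 44 genes with such symbols. The 6 others were not analysed here.

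RNA of whole hearts from male Sprague-Dawley rats, given as 10 weeks old, was measured on 6 Clariom S Rat arrays, 2 per group. The groups are normal heart, TAC (hearts whose transverse aorta had been tied over a blunt needle, which narrows it and loads the left ventricle) and TAC-R (hearts released from TAC). No allele or drug distinguishes the groups, the time under TAC and after release is not given in the sources used here, and whether the normal hearts are the protocol's controls, operated on without ligation, is not said. Nothing in the labels ties an array to an animal, so errors and p-values below cover only the spread from array to array, and that spread may be technical.

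Sodium channels open first in a working heart cell and give the fast upstroke of the action potential. L-type calcium channels then let in the calcium that triggers contraction, and T-type calcium channels and the HCN channels, which open on hyperpolarisation, drive the slow depolarisation of pacemaker cells. Each sodium or calcium channel has a large pore-forming subunit (alpha, or alpha1) and smaller auxiliary subunits (beta, alpha2delta, gamma) that set how many channels reach the membrane and how they gate. Many members of these families are channels of nerve or skeletal muscle. Ventricles of loaded hearts are known to change several of these currents.

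Values are the deposited log2 signals, on which 1 unit is a doubling. Arrays of a group correlated at 0.9913 to 0.9926 across 23188 tested rows and arrays of different groups at 0.9882 to 0.9908. The files hold no detection calls, so each signal was set against 1153 negative control rows of the same array. Their 95th percentile, used here as the floor, was 8.45 and 8.55 on the normal arrays, 8.22 and 8.12 on the TAC arrays and 8.17 and 8.09 on the TAC-R arrays. A level under the floor is called dim, and the size of a difference between dim levels is not measured. Of 8 ventricular muscle markers 7 lay above the floor on all arrays, although the labels' text on RNA extraction names cultured fibroblasts. Nppb, a peptide gene induced by stretch, was lower on the arrays labelled TAC (13.57 and 13.88) than on the normal arrays (16.05 and 15.72, limma adjusted p = 0.0118). It was 16.91 and 17.23 on the TAC-R arrays. Myh7, a myosin that loaded rat ventricles are known to induce, was lower on the arrays labelled TAC too (17.87 and 17.76, adjusted p = 0.00627). Its normal signals of 19.91 and 19.93 were at or near the ceiling of the values, so the size of that difference is only bounded from below. These checks were chosen after their values were seen, and TAC below stands for the arrays labelled TAC.

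Most channel subunit genes were dim. The 6 genes above the floor on all 6 arrays were Hcn2 and Hcn4, the sodium channel beta subunit Scn4b, and the 3 parts of the cardiac L-type channel, Cacna1c, Cacnb2 and Cacna2d1. Cacna2d2 and Cacng6 lay above it on some arrays, and 30 genes on none. The share above the floor on all arrays was 15.8%, against 22.6% of all tested rows. By family, 1 of 9 calcium channel alpha1 genes, 1 of 4 alpha2delta genes, 1 of 4 calcium channel beta genes, 0 of 7 gamma genes, 2 of 3 HCN genes, 0 of 8 sodium channel alpha genes and 1 of 3 sodium channel beta genes lay above it throughout. Below even the median of the controls on all arrays were 15 genes, among them the nerve channel gene Scn11a, the brain calcium channel genes Cacna1b and Cacna1e, and Hcn3.

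**Figure D1:**
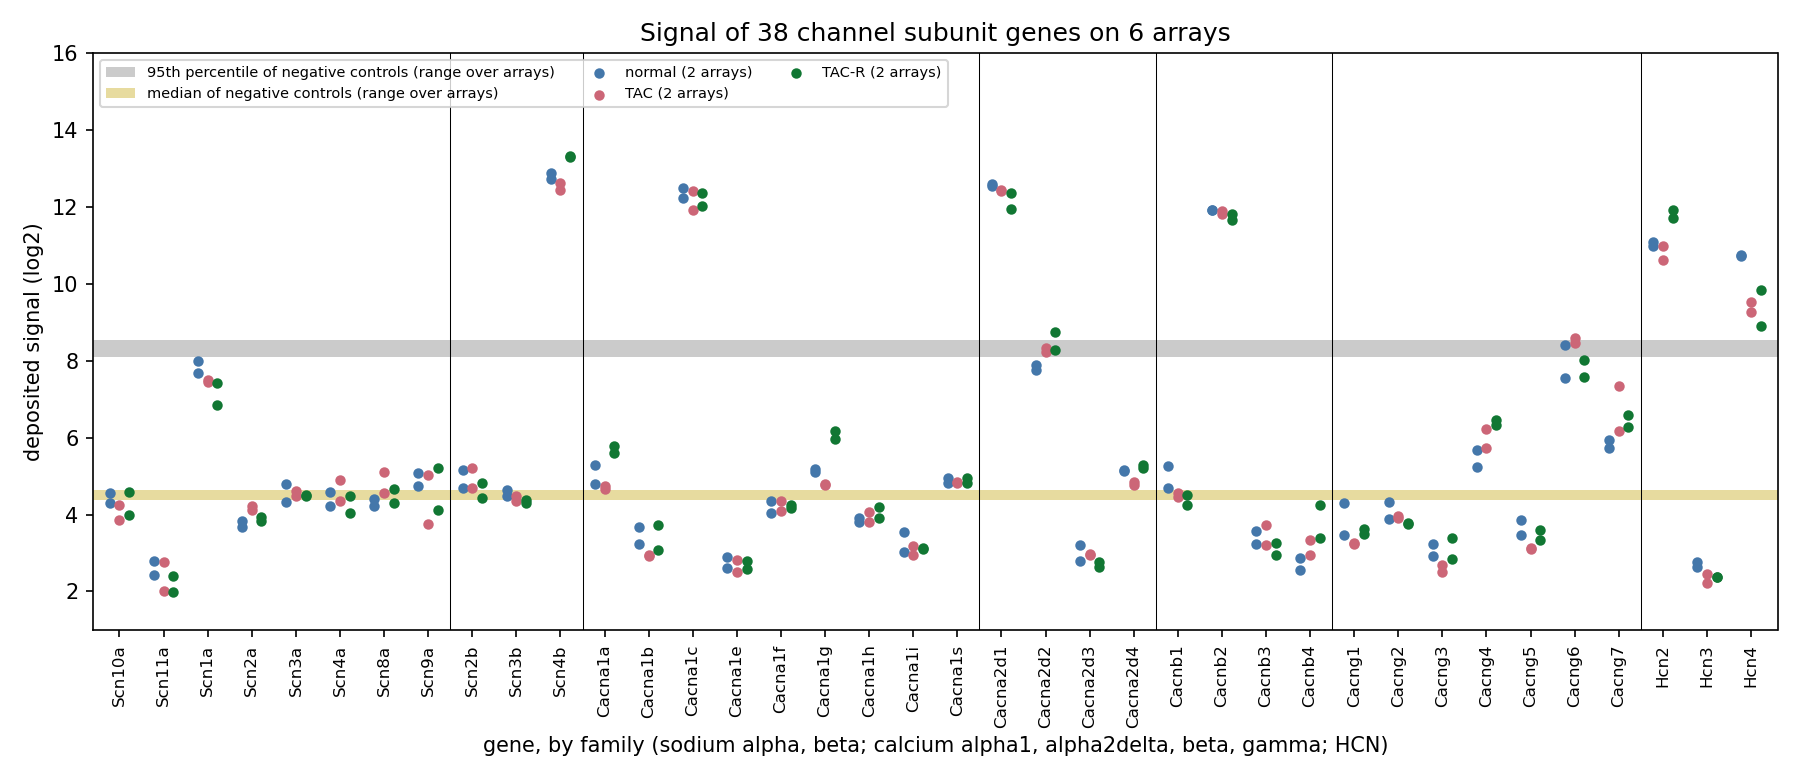
Deposited log2 signal (vertical axis) of each of the 38 channel subunit genes, grouped by family (horizontal axis), with 1 point for each of 2 normal, 2 TAC and 2 TAC-R arrays. The bands span the 95th percentile and the median of the negative control rows over the arrays, and only 6 genes lie above the upper band on all 6 arrays.

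Hcn4, the channel gene known for pacemaker cells of the sinoatrial node, had the lowest unadjusted p of the family in both comparisons with normal hearts. Its signal was 10.74 and 10.73 on the normal arrays, 9.53 and 9.26 on the TAC arrays, and 9.83 and 8.91 on the TAC-R arrays. Both normal arrays lay above all 4 others, and the TAC and TAC-R arrays overlapped. The TAC arrays differed from the normal arrays by -1.34 ± 0.31 log2 units (± SE, 2.54-fold lower), with an interval from -2.04 to -0.65 at 95% confidence. The difference did not pass the adjustment over all rows (limma, adjusted p = 0.194). TAC-R differed from normal by -1.37 ± 0.31 (adjusted p = 0.223) and from TAC by -0.02 ± 0.31 (adjusted p = 0.989, interval -0.72 to 0.67). With an intensity trend in limma's moderation, which lets the expected spread depend on the signal, the differences from normal passed at adjusted p = 0.0416 (TAC) and 0.0404 (TAC-R). Over all settings the adjusted p ran from 0.0416 to 0.623 for TAC and from 0.0404 to 0.687 for TAC-R. The difference of TAC-R from normal was -1.83 without TAC-R replicate 1 and -0.91 without TAC-R replicate 2, the array on which Hcn4 was lowest. In whole-heart RNA, fewer cells of a type and less RNA per cell cannot be told apart.

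Hcn2, the HCN subunit known from both ventricle and nerve, had another order of groups. It read 11.09 and 10.97 on the normal arrays, 10.61 and 10.97 on the TAC arrays, and 11.92 and 11.70 on the TAC-R arrays. Both TAC-R arrays lay above the 4 others, while TAC replicate 2 equalled normal replicate 2 to 2 decimals. TAC-R exceeded TAC by 1.02 ± 0.23 log2 units (2.02-fold, interval 0.50 to 1.53, limma adjusted p = 0.143) and normal by 0.77 ± 0.23 (1.71-fold, adjusted p = 0.312). TAC differed from normal by -0.24 ± 0.23 (adjusted p = 0.747). Neither difference of TAC-R passed in the designed fit, and that from TAC passed with an intensity trend (adjusted p = 0.0166). It ran from 0.84 to 1.20 over all settings, with adjusted p from 0.0166 to 0.481. Hcn3, the other HCN gene measured, lay between 2.23 and 2.76 on all arrays, below the median of the controls.

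Scn4b, an auxiliary beta subunit that binds the pore subunit and shapes its resurgent current, also had its highest signals on the TAC-R arrays. These were 12.88 and 12.72 on the normal arrays, 12.63 and 12.44 on the TAC arrays, and 13.31 and 13.29 on the TAC-R arrays. The 3 groups did not overlap, with TAC-R highest and TAC lowest. TAC-R exceeded TAC by 0.77 ± 0.21 (1.70-fold, interval 0.29 to 1.25, limma adjusted p = 0.221) and normal by 0.50 ± 0.21 (adjusted p = 0.448). TAC differed from normal by -0.27 ± 0.21 (adjusted p = 0.696). The difference between TAC-R and TAC passed with an intensity trend (adjusted p = 0.0227) and ran from 0.67 to 0.86 over all settings, with adjusted p from 0.0227 to 0.538. When only the 5243 rows above the floor on all arrays were fitted, a choice made after seeing the data, Hcn2 and Scn4b both passed between TAC-R and TAC (adjusted p = 0.036 and 0.0448).

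**Figure D2:**
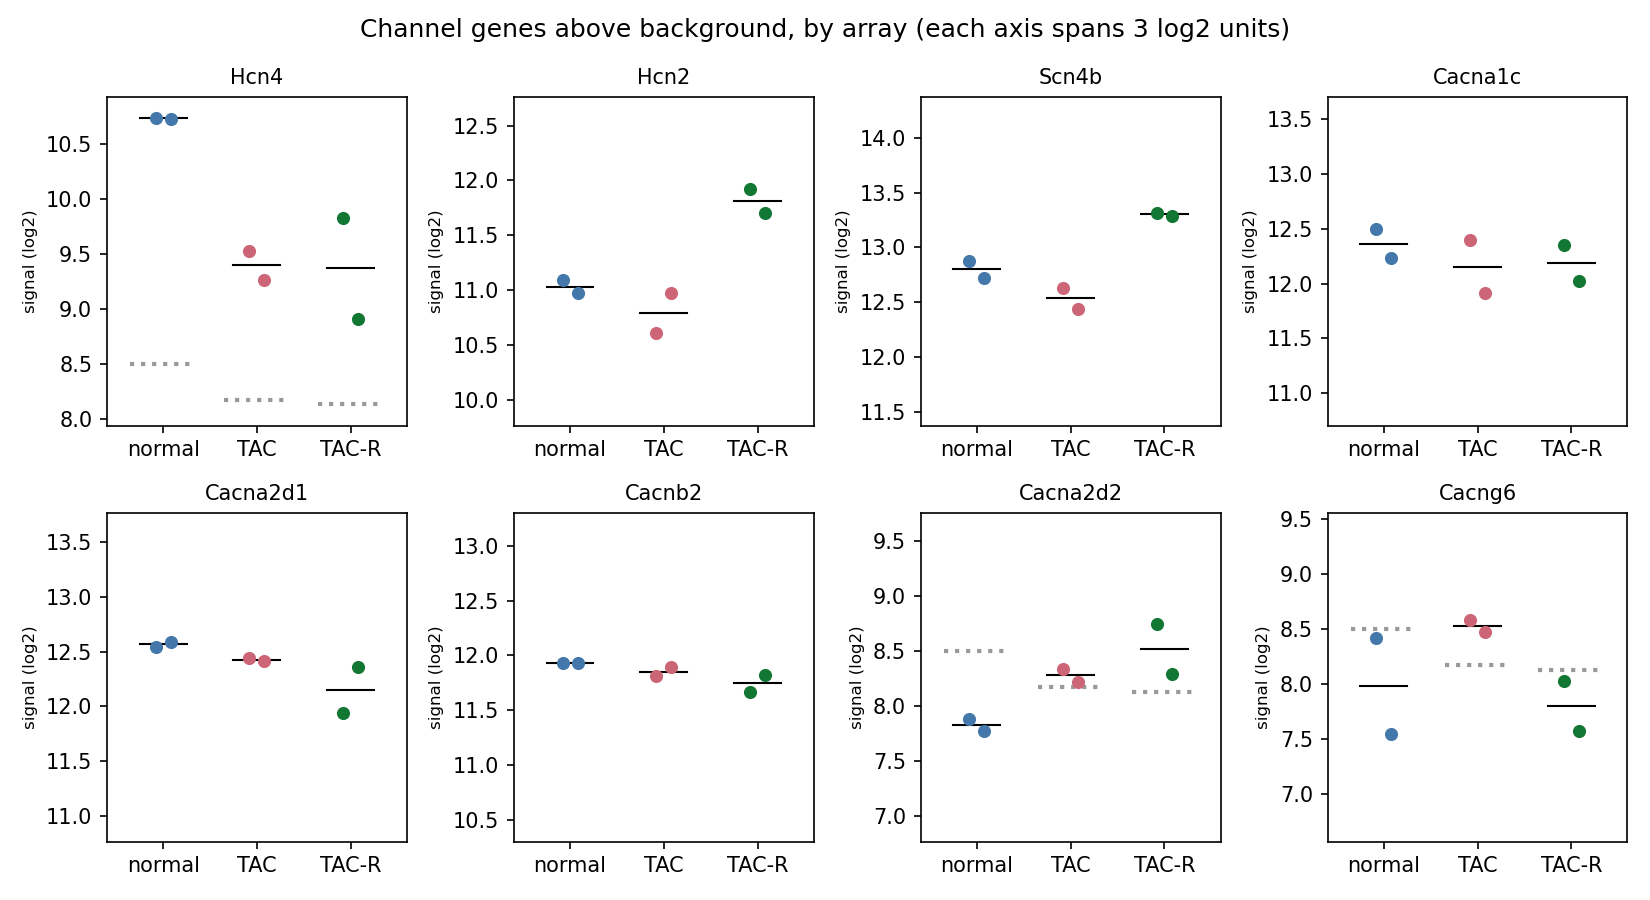
Deposited log2 signal (vertical axes, each spanning 3 units) of the 8 genes above the floor on both arrays of at least 1 group, by group (horizontal axes), with a point per array and a line at the mean of the 2 arrays. Dotted lines give the mean floor of the group's arrays, the 95th percentile of the negative controls, for Hcn4, Cacna2d2 and Cacng6. Hcn4 is highest on the normal arrays and Hcn2 and Scn4b on the TAC-R arrays, while Cacna1c overlaps in all 3 comparisons.

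The 250 bases before the start of Hcn2 and Scn4b, which both had their highest signals on the TAC-R arrays, are shown with those of Cacna1c, a bright gene whose groups overlapped. RefSeq promoter sequences (build GRCr8, 5′ to 3′ on the gene's strand) were matched by symbol for 25 of the 38 genes, and Hcn4 and Cacna1g were not among them. Capitals mark the E-box CANNTG and the GC box GGGCGG on either strand, which do not overlap here. The windows are chr7:10639458-10639707 on the minus strand (Hcn2), chr8:54343623-54343872 on the plus strand (Scn4b) and chr4:154051749-154051998 on the minus strand (Cacna1c).
Hcn2: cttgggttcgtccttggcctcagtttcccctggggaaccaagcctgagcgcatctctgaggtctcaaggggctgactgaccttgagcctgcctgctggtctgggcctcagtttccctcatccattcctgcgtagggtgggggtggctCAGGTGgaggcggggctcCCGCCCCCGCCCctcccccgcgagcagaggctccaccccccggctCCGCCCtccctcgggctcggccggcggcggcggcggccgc
Scn4b: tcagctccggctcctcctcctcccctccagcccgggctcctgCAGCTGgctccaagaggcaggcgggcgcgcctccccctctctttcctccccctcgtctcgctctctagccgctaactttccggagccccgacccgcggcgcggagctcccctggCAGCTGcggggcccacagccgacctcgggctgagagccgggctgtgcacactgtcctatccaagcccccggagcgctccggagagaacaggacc
Cacna1c: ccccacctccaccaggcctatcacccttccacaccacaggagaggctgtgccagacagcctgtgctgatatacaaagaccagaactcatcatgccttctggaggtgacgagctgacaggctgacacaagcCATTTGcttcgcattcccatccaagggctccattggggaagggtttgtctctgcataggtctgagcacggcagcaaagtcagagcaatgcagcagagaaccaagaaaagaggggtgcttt
Hcn2 had 1 E-box and 3 GC boxes, Scn4b 2 E-boxes and 0 GC boxes, and Cacna1c 1 E-box and 0 GC boxes. Of 33469 windows of this length in the table, 65.5% held an E-box and 30.5% a GC box. The share of G and C was 71.6% for Hcn2, 71.6% for Scn4b and 54.4% for Cacna1c, against a median of 51.2% and an upper quartile of 60% over all windows. The GATA motif AGATAA and the TATA box TATAAA, also searched on both strands, had 0 matches in the 3 windows, and 10.3% and 12.9% of all windows held them. These are matches of letters in a short window and not measured binding sites.

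No part of the cardiac L-type channel complex passed the test in any comparison. Cacna1c, its pore, read 12.50 and 12.23 on the normal arrays, 12.40 and 11.91 on the TAC arrays, and 12.35 and 12.02 on the TAC-R arrays. All groups overlapped, and the intervals ran from -0.79 to 0.37 for TAC minus normal, -0.55 to 0.61 for TAC-R minus TAC and -0.76 to 0.40 for TAC-R minus normal. Cacnb2, the beta subunit that carries the pore to the membrane, read 11.93 on both normal arrays, 11.81 and 11.89 on the TAC arrays, and 11.67 and 11.82 on the TAC-R arrays. Its differences were -0.08 ± 0.21, -0.10 ± 0.21 and -0.18 ± 0.21 for TAC minus normal, TAC-R minus TAC and TAC-R minus normal (limma, adjusted p = 0.929, 0.9 and 0.795). Cacna2d1, the alpha2delta subunit of that channel and the target of gabapentin, read 12.54 and 12.59 on the normal arrays, 12.44 and 12.41 on the TAC arrays, and 11.94 and 12.36 on the TAC-R arrays. The groups did not overlap and stepped down from normal to TAC-R, with TAC-R replicate 1 lowest. The largest of the 3 differences, TAC-R minus normal, was -0.42 ± 0.23 (adjusted p = 0.547, interval -0.93 to 0.09). It was -0.21 without TAC-R replicate 1 and -0.62 without TAC-R replicate 2.

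Cacna2d2, a related alpha2delta subunit, was lowest on the normal arrays. It read 7.88 and 7.77 on the normal arrays, 8.34 and 8.22 on the TAC arrays, and 8.75 and 8.29 on the TAC-R arrays. The normal signals were dim and those of the 4 other arrays above their floor, so the difference between TAC-R and normal of 0.70 ± 0.23 (limma, adjusted p = 0.357) is bounded only as at least 1.02-fold higher. That bound sets the mean of the TAC-R arrays against the mean floor of the normal arrays. TAC differed from normal by 0.46 ± 0.23 (adjusted p = 0.533). TAC and TAC-R overlapped, with a difference of 0.24 ± 0.23 (adjusted p = 0.767) that was 0.01 without TAC-R replicate 1. The other 2 alpha2delta genes, Cacna2d3 and Cacna2d4, lay between 2.63 and 5.30.

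Cacna1g was the 1 gene of the family called changed. This pore subunit of T-type channels, known from embryonic ventricle and from pacemaker and conduction tissue, rose on the TAC-R arrays against the TAC arrays. The signals were 5.18 and 5.10 on the normal arrays, 4.79 and 4.76 on the TAC arrays, and 6.18 and 5.96 on the TAC-R arrays. The 3 groups did not overlap. The difference was 1.30 ± 0.21 log2 units (limma, adjusted p = 0.0451), but all 6 signals were dim, above the median of the controls and below the floor, so its size is not measured. TAC-R minus normal was 0.93 ± 0.21 (adjusted p = 0.225) and TAC minus normal -0.37 ± 0.21 (adjusted p = 0.571). The call ended whichever array was left out, at adjusted p = 0.113 without either normal array, 0.263 and 0.279 without TAC replicates 1 and 2, and 0.173 and 0.197 without TAC-R replicates 1 and 2. It also ended with control rows kept in (0.0807) and with the replicate number of the labels as a replicate block (0.0953). With only the 2 groups in the fit it ended at 0.113. For this comparison that fit and those without 1 normal array are the same, since a normal array left alone adds no spread. The difference itself stayed between 1.19 and 1.41 in all settings. Cacna1h, the other T-type gene known from heart, read 3.81 and 3.90, 4.06 and 3.80, and 4.20 and 3.90 on the normal, TAC and TAC-R arrays, below the median of the controls throughout.

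Among the other alpha1 genes, Cacna1a, the P/Q-type pore of nerve endings, had the third lowest unadjusted p of the family between TAC-R and TAC. It read 4.80 and 5.30 on the normal arrays, 4.74 and 4.67 on the TAC arrays, and 5.79 and 5.60 on the TAC-R arrays. TAC-R lay above both other groups, by 0.99 ± 0.24 against TAC and 0.65 ± 0.24 against normal (limma, adjusted p = 0.166 and 0.4), at dim signals. The difference from normal was 0.40 without normal replicate 1. Cacna1s, the L-type pore of skeletal muscle, lay between 4.82 and 4.95. Cacna1b, Cacna1e, Cacna1f and Cacna1i, channels of nerve and retina, lay between 2.50 and 4.34.

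The calcium channel gamma genes include Cacng1, Cacng6 and the AMPA receptor partners Cacng2, Cacng3, Cacng4, Cacng5 and Cacng7. Cacng6, a gamma subunit known from skeletal and heart muscle, read 8.42 and 7.54 on the normal arrays, 8.58 and 8.47 on the TAC arrays, and 8.03 and 7.57 on the TAC-R arrays. Only the TAC arrays lay above their floor. TAC-R differed from TAC by -0.72 ± 0.31 (limma, adjusted p = 0.449), at least 1.31-fold lower by the floor. The normal arrays overlapped the TAC-R arrays, and normal replicate 1 lay just below the TAC arrays. Cacng7 read 5.73 and 5.93 on the normal arrays, 7.34 and 6.18 on the TAC arrays, and 6.28 and 6.58 on the TAC-R arrays. TAC replicate 1 stood apart, and the difference of TAC from normal, 0.93 ± 0.35, did not pass (adjusted p = 0.431). It was 0.35 without TAC replicate 1 and 1.51 without TAC replicate 2. Cacng4 read 5.67 and 5.23, 6.22 and 5.73, and 6.32 and 6.45 on the normal, TAC and TAC-R arrays. It stepped up over the 3 groups without overlap, with TAC-R minus normal at 0.93 ± 0.26 (adjusted p = 0.302). Its neighbours on chromosome 10 in the RefSeq gene order, Cacng1 and Cacng5, did not share that order. Cacng1 read 3.46 and 4.29, 3.27 and 3.24, and 3.50 and 3.62 on the normal, TAC and TAC-R arrays, and Cacng5 3.46 and 3.85, 3.12 and 3.11, and 3.61 and 3.33. Both were lowest on the TAC arrays. All 3 genes were dim. Their TAC minus normal differences were 0.52 ± 0.26 for Cacng4, -0.62 ± 0.29 for Cacng1 and -0.54 ± 0.23 for Cacng5 (adjusted p = 0.522, 0.499 and 0.476). They were 0.30, -0.20 and -0.34 without normal replicate 2, and that of Cacng4 was 0.28 without TAC replicate 1. Without normal replicate 1 that of Cacng1 was -1.04.

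The calcium channel beta genes other than Cacnb2 were dim. Cacnb4, a beta subunit of nerve, read 2.87 and 2.55 on the normal arrays, 2.94 and 3.34 on the TAC arrays, and 4.24 and 3.40 on the TAC-R arrays. TAC-R minus normal was 1.11 ± 0.31 (limma, adjusted p = 0.304) at signals under the median of the controls, so its size is not measured. It was 0.69 without TAC-R replicate 1. Cacnb1 and Cacnb3 lay between 2.94 and 5.27.

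None of the 8 sodium channel pore genes analysed reached the floor on any array. Scn1a, a sodium channel of nerve that is also found in heart, came nearest. It read 7.67 and 7.98 on the normal arrays, 7.50 and 7.44 on the TAC arrays, and 6.84 and 7.42 on the TAC-R arrays. TAC-R differed from normal by -0.70 ± 0.26 (limma, adjusted p = 0.398), and the 3 groups did not overlap. Scn2a, Scn3a and Scn9a, nerve channel genes of the same cluster on chromosome 3, lay between 3.68 and 5.21. Scn4a, the pore of skeletal muscle, lay between 4.05 and 4.90, Scn8a between 4.23 and 5.10, and the sensory nerve genes Scn10a and Scn11a between 1.99 and 4.58. The beta subunit gene Scn2b, the direct neighbour of the bright Scn4b on chromosome 8, read 4.69 and 5.17 on the normal, 5.22 and 4.70 on the TAC and 4.43 and 4.83 on the TAC-R arrays. Scn3b read 4.65 and 4.48, 4.47 and 4.34, and 4.37 and 4.31, and both genes were dim. The largest estimate for Scn2b was -0.33 ± 0.28 (TAC-R minus TAC, adjusted p = 0.731, interval -0.97 to 0.31). That for Scn3b was -0.23 ± 0.21 (TAC-R minus normal, adjusted p = 0.731). At these dim signals neither size is measured.

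Counted over the family, more channel genes were lower than higher in hearts under TAC than in normal hearts. Limma called 0 of 38 genes, against 0.254% of all rows. At an unadjusted p under 0.05, 1 gene was higher (Cacng7) and 2 were lower (Hcn4 and Cacng5), against 5.43% and 4.89% of all rows. This count of 3 became 6 without normal replicate 1, 1 without normal replicate 2, 1 without TAC replicate 1 and 5 without TAC replicate 2. Both TAC arrays lay above both normal arrays for 7 genes and below for 17, 18.4% and 44.7% of the family, against 21.9% and 21.3% of all rows. The median difference was -0.17 over the family and 0.00 over all rows. The negative control rows moved too, with a median difference of -0.21, and 26.5% of them were lower on both TAC arrays against 10.8% higher. Of the 17 lower genes 12 were dim on all arrays and 5 bright. These were Hcn4, Hcn2, Scn4b, Cacna2d1 and Cacnb2, 5 of the 6 bright genes. Of rows above the floor, 18.7% were lower in this way. The 4 genes other than Hcn4 had differences between -0.27 and -0.08. Hcn2 counts here only by decimals beyond the second, as TAC replicate 2 and normal replicate 2 both read 10.97. At an unadjusted p under 0.05, 1 of the 6 bright genes passed, against 8.89% of rows above the floor. The part of the controls' shift in these counts was not tested.

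Between hearts released from TAC and hearts under TAC, 4 of the 5 channel genes with the lowest p-values were higher in the released hearts. Limma called 1 of 38 genes, Cacna1g, against 0.431% of all rows. At an unadjusted p under 0.05, 4 genes were higher (Cacna1g, Hcn2, Cacna1a and Scn4b) and 1 lower (Cacng6), against 4.79% and 6.2% of all rows. Both TAC-R arrays lay above both TAC arrays for 11 genes and below for 6, against 20.1% and 20.4% of all rows. The median difference was 0.03, against 0.00 over all rows and 0.01 over the negative controls. Of the 6 bright genes 2 passed the unadjusted threshold, against 12.9% of rows above the floor.

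Between released and normal hearts, limma called 0 of 38 genes, against 0.0906% of all rows. At an unadjusted p under 0.05, 7 genes were higher (Cacna1g, Cacng4, Cacnb4, Hcn2, Cacna2d2, Cacna1a and Scn4b) and 3 lower (Hcn4, Scn1a and Cacnb1). These are 18.4% and 7.89% of the family, against 5.36% and 5.32% of all rows. The count of 10 fell to 4 without TAC-R replicate 1 and to 5 without normal replicate 2. Both TAC-R arrays lay above both normal arrays for 10 genes and below for 10, against 20.6% and 20.3% of all rows. The median difference was -0.14, against 0.00 over all rows and -0.23 over the negative controls. Of the 6 bright genes 3 passed the unadjusted threshold (Hcn4, Hcn2 and Scn4b), against 10.1% of rows above the floor. The 3 comparisons share arrays, so their values are not independent of each other.

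**Figure D3:**
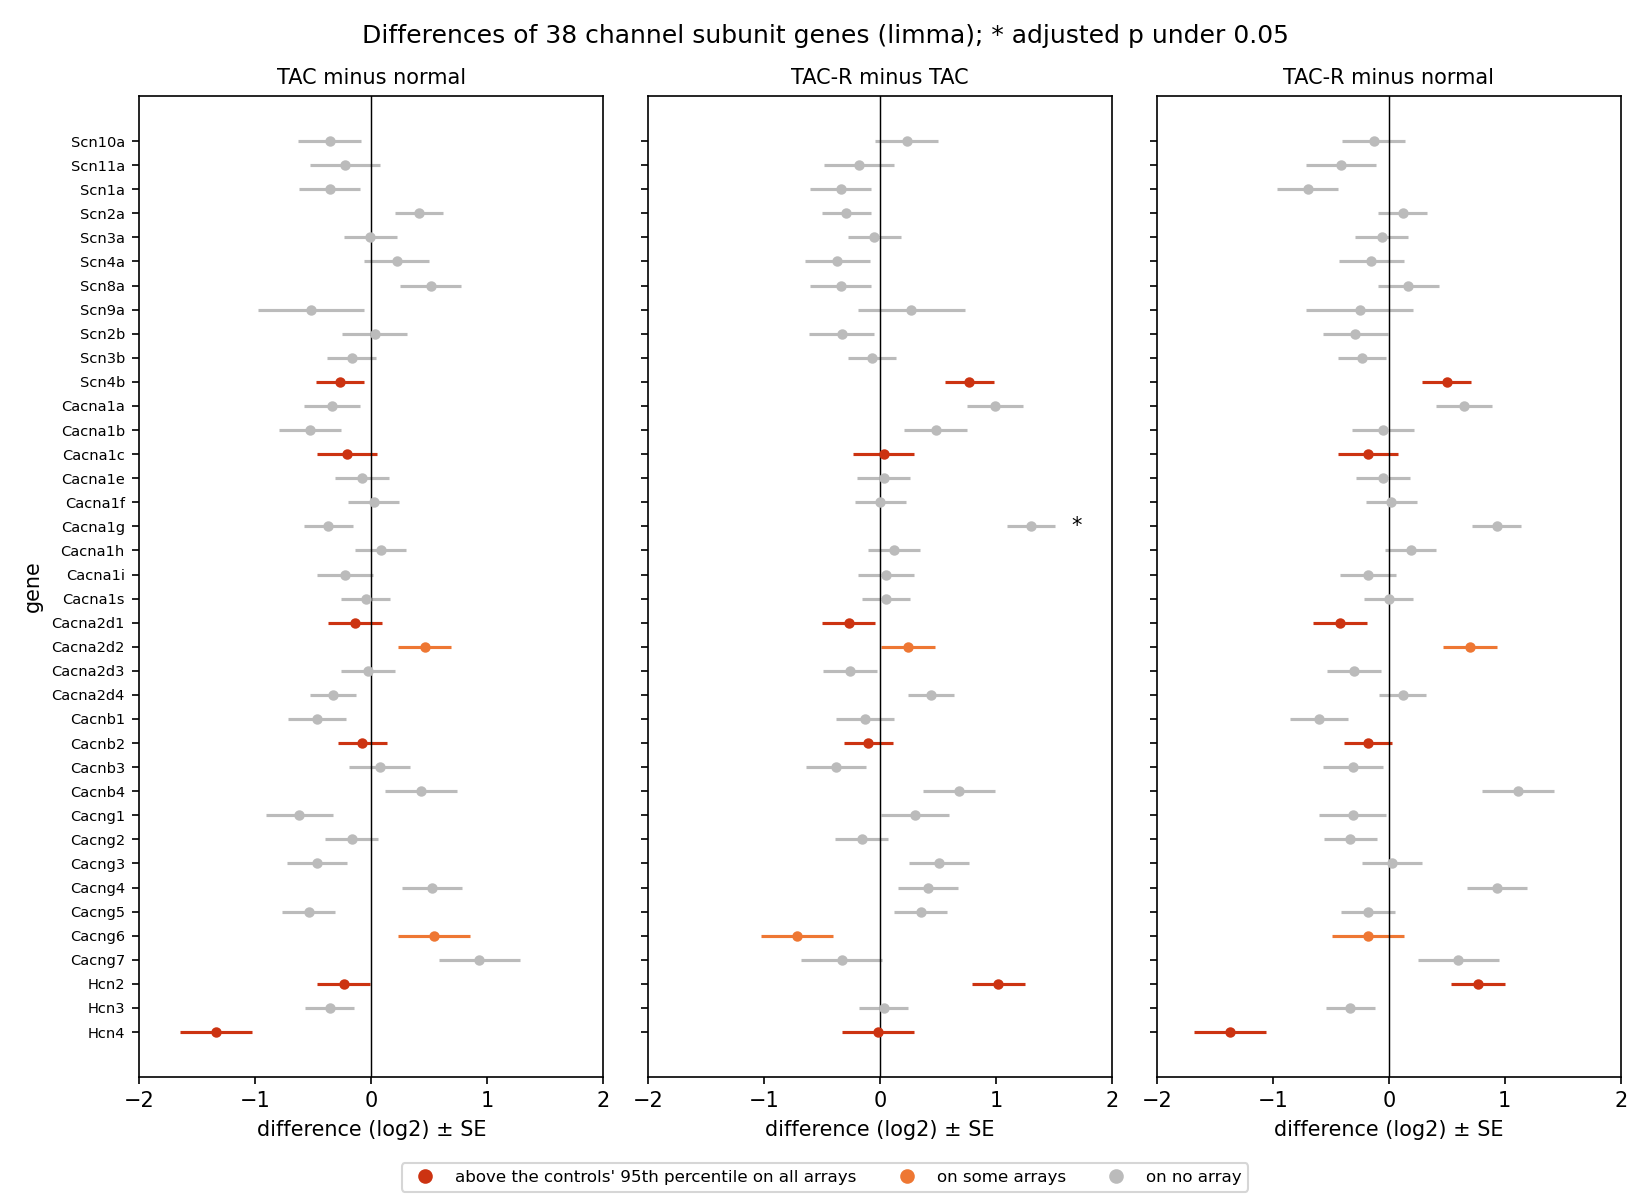
Differences in log2 units (horizontal axes, ± SE of the limma fit) of the 38 channel subunit genes (vertical axis) in the 3 comparisons, coloured by whether the gene lay above the floor on all, some or no arrays. Hcn4 lies at -1.34 and -1.37 against normal and Cacna1g, the starred gene, at 1.30 between TAC-R and TAC.

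Genes that anchor, carry or regulate these channels were read from the same fit. Of 42 listed partners, such as ankyrins, fibroblast growth factor homologous factors, calmodulins and RGK proteins, 32 had a row and 16 lay above the floor on all arrays. Limma called 0 in each comparison, against 0.254% (TAC minus normal), 0.431% (TAC-R minus TAC) and 0.0906% (TAC-R minus normal) of all rows. At an unadjusted p under 0.05 there were 0 higher and 4 lower between TAC and normal, 1 higher and 2 lower between TAC-R and TAC, and 1 higher and 3 lower between TAC-R and normal. Over all rows these shares were 5.43% and 4.89%, 4.79% and 6.2%, and 5.36% and 5.32%. Their median differences were -0.02, 0.09 and 0.00. Of 14 transcription factors of the conduction system 12 had a row. Limma called 1, Tbx18, which is known for building the sinoatrial node, between TAC-R and TAC, against 0.431% of all rows. Tbx18 fell from 6.73 and 6.66 on the TAC arrays to 5.02 and 4.88 on the TAC-R arrays (adjusted p = 0.0157), at dim signals whose difference has no measured size. At an unadjusted p under 0.05, 1 factor was higher and 2 lower between TAC and normal, and 1 higher and 1 lower between TAC-R and TAC. Between TAC-R and normal 5 were higher (Tbx3, Tbx20, Nkx2-5, Gata4 and Rest) and 2 lower (Tbx18 and Irx5). The shares over all rows are those given above. Median differences of that list were 0.25, 0.30 and 0.36 for TAC minus normal, TAC-R minus TAC and TAC-R minus normal.

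Markers of other cells that carry these channels were compared on the same arrays. Of 12 atrial muscle markers 11 had a row, and 5 lay above the floor on all arrays. Their mean signal was 7.91 and 8.04 on the normal arrays, 7.82 and 7.74 on the TAC arrays, and 9.42 and 8.57 on the TAC-R arrays. The list's median difference between TAC-R and TAC was 0.09, and Myl7, Nppa, Myl4 and Sln of the 11 stood far above it. The atrial light chain gene Myl7 read 8.40 and 8.43, 7.48 and 7.51, and 14.30 and 12.54 on the normal, TAC and TAC-R arrays. It rose on the TAC-R arrays (limma, adjusted p = 0.00315 against TAC and 0.0105 against normal). Nppa read 13.69 and 11.26, Myl4 8.72 and 5.91, and Sln 6.10 and 4.07 on TAC-R replicates 1 and 2. Nppa read 9.97 and 10.32 on the normal arrays and 8.60 and 8.92 on the TAC arrays. Sln was dim on all arrays, and Myl4 on all but TAC-R replicate 1. TAC-R replicate 1 stood well above TAC-R replicate 2 for Myl7, Nppa, Myl4 and Sln. Hcn2 read 11.92 and 11.70 on these arrays, Scn4b 13.31 and 13.29, and Cacna1g 6.18 and 5.96. Hcn4, at 9.83 and 8.91, and the dim Cacnb4, at 4.24 and 3.40, were also higher on replicate 1. Other channel genes were lower on replicate 1, such as the bright Cacna2d1, at 11.94 and 12.36, and the dim Scn1a, at 6.84 and 7.42. Nr2f2, Kcnj3, Kcna5 and Nr2f1 had differences of -0.82, -0.24, -0.20 and -0.06 between TAC-R and TAC. The atrial markers Gja5 and Pam, both bright, ranged from 10.54 to 10.83 and from 18.19 to 18.46 over all arrays. Whether atrial tissue has a part in the higher Hcn2, Scn4b and Cacna1g signals was not tested.

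**Figure D4:**
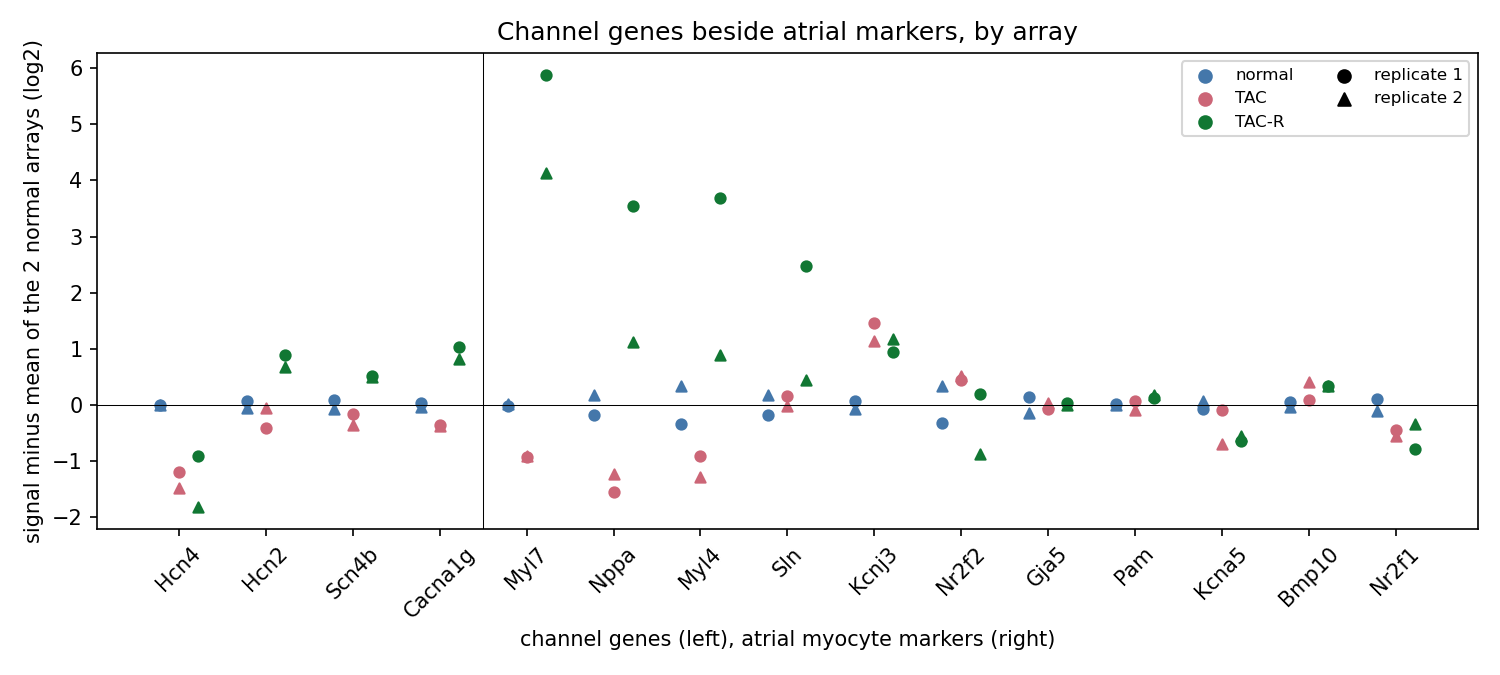
Deposited log2 signal minus the mean of the 2 normal arrays (vertical axis) for 4 channel genes and the 11 measured atrial muscle markers (horizontal axis), with 1 point per array and replicates 1 and 2 as circles and triangles. Myl7, Nppa, Myl4 and Sln are highest on TAC-R replicate 1 and second on TAC-R replicate 2. Deposited signals on TAC-R replicates 1 and 2 were 11.92 and 11.70 for Hcn2 and 13.31 and 13.29 for Scn4b. They were 6.18 and 5.96 for Cacna1g and 9.83 and 8.91 for Hcn4.

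Of 10 sinoatrial node markers, all with a row, 9 were dim on all arrays and Shox2, Isl1 and Cpne5 lay below the median of the controls throughout. Tbx18, which is also in this list, was the 1 called. At an unadjusted p under 0.05, 1 was higher (Isl1) and 4 lower (Tbx18, Smoc2, Bmp4 and Rgs6) between TAC-R and TAC. Between TAC-R and normal 2 were higher (Vsnl1 and Tbx3) and 5 lower (Tbx18, Smoc2, Bmp4, Rgs6 and Cpne5). Between TAC and normal 1 was higher (Vsnl1) and 1 lower (Isl1). Over all rows the shares higher and lower were 4.79% and 6.2% (TAC-R and TAC), 5.36% and 5.32% (TAC-R and normal), and 5.43% and 4.89% (TAC and normal). The part of these markers in the Hcn4 difference was not tested. Their mean was 5.73 and 5.81 on the normal, 5.94 and 5.90 on the TAC, and 5.76 and 5.39 on the TAC-R arrays. Of 15 neuronal markers 14 had a row, all dim, 10 of them below the median of the controls on all arrays, with means from 3.38 to 3.67. Schwann cell and glial markers had means from 6.55 to 7.27. Among them Ncam1, which is also found in muscle, rose on the TAC-R arrays (14.40 and 13.60, which is 1.93 above TAC, limma adjusted p = 0.0353). Skeletal muscle markers had means from 6.76 to 7.08, with 6 of 12 below the median of the controls on all arrays. Acta1 was called higher in TAC-R than under TAC (adjusted p = 0.0157), with TAC-R replicate 2 at the ceiling of the values, so no size is given. Chrna1 was called higher than normal under TAC and in TAC-R (adjusted p = 0.00703 and 0.00223). Fibroblast markers moved with the groups, with means of 11.63 and 11.46 on the normal, 12.18 and 12.11 on the TAC and 11.16 and 10.81 on the TAC-R arrays. Of 8 measured, 8 were lower between TAC and TAC-R at an unadjusted p under 0.05, against 6.2% of all rows, and of these Col1a2 and Col3a1 fell in limma's test (adjusted p = 0.0469 and 0.0269). Smooth muscle and pericyte markers had means of 10.18 and 10.19, 10.82 and 10.68, and 10.32 and 9.91 on the normal, TAC and TAC-R arrays, and the dim Cnn1 was called higher under TAC (adjusted p = 0.0319). Endothelial markers had means of 10.64 and 10.85, 10.90 and 10.78, and 10.47 and 10.07. Macrophage markers had means of 6.50 and 6.35, 7.14 and 7.03, and 6.76 and 6.73, and 0 genes of these 2 lists were called. At that unadjusted threshold, TAC-R was below TAC for 5 of 10 smooth muscle, 5 of 8 endothelial and 3 of 9 macrophage markers. In this comparison 0 were higher, against 6.2% lower and 4.79% higher over all rows. For TAC against normal 3, 1 and 4 were higher and 0 lower, against 5.43% and 4.89% of all rows. For TAC-R against normal 1, 0 and 3 were higher and 0, 3 and 0 lower, against 5.36% and 5.32%. Ventricular muscle markers had means from 16.54 to 16.85, with 3 of 8 at the ceiling of the values on all arrays. The part of these shifts in the channel genes' differences was not tested.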

How the data were processed

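The authors deposited log2 signals from RMA (robust multi-array averaging, which subtracts background, equalises arrays and sums probes), run in Expression Console on core exons, per the labels. Its version is not given in the sources. RMA makes the arrays' distributions alike, so a shift of all transcripts cannot be seen. The values were fitted as deposited (array medians 5.31 to 5.39, ceiling 19.9315).

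Of 24834 rows, 1646 control rows were left out, and 23188 were tested. A platform table named 15049 of them; none had several symbols, and 8139 had none. Limma 3.58.1 in R 4.3.3 took the 6 arrays in a single fit of 3 group means (3 residual and 5.71 prior degrees of freedom). A gene is called where its adjusted p (Benjamini-Hochberg, all tested rows) is under 0.05. Intervals use the moderated error. With 2 arrays against 2, an exact permutation test cannot go below p = 0.33. The fit was tested on simulated data with independent noise in each row. That test does not cover a shift shared by the rows of an array.

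The number of arrays limits the precision. Genes given with the value on every array were those called, above the floor on both arrays of a group, among the 5 lowest p-values of a comparison, or fixed as the heart's own channels; Scn1a was added after its values were seen. The family and all lists were chosen with earlier results of these data known. Alternatives were other moderation, scaling, filters, a replicate block and leaving out each array.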

Additional observations from a re-analysis of the deposited data

How the results depend on the processing

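Counts of called rows moved with the setting. For TAC minus normal, TAC-R minus TAC and TAC-R minus normal they were 59, 100 and 21 as designed, and 170, 344 and 156 with an intensity trend. They were 35, 37 and 12 with only the 2 groups fitted, 39, 44 and 10 with control rows kept, and 36, 47 and 11 with the replicate block. For both comparisons with TAC-R they were 187 and 68 with rows below the median of row means left out, and 158 and 36 with only rows above the floor. For TAC-R minus normal the count was 54 with arrays centred on the median and 37 without rows at the ceiling. Leaving out 1 array gave 0 to 35, 4 to 37 and 0 to 12. Where 0 rows were called, limma had 2025 rows (without TAC replicate 2, TAC minus normal) and 1630 rows (without normal replicate 2, TAC-R minus normal) at an unadjusted p under 0.05.

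Of channel subunit genes, limma called 0, 1 and 0 as designed. An intensity trend gave 1 (Hcn4), 3 (Cacna1g, Hcn2 and Scn4b) and 1 (Hcn4), and the unadjusted threshold 3, 5 and 10. The middle count was 0 with only the 2 groups fitted, with control rows kept, with the replicate block, and whichever array was left out, and 2 (Hcn2 and Scn4b) with only rows above the floor. The same-numbered arrays did not deviate together over all rows (correlations of -0.01 to 0.01 between groups). A link between them that touches only some rows could not be seen this way. With the median of the controls as floor, 15 genes in place of 6 lay above it on all arrays. Of 807 values of the 18 genes named by the fixed rule under other settings, 18 had the other sign, none in a called difference. The settings with only rows above the floor and without rows at the ceiling were chosen after seeing the data. Dim signals limit what can be said of 30 of the 38 genes.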
